A study of Mus musculus with 2 samples.

Results

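The cardiac myosin heavy chains are Myh6, Myh7 and Myh7b, taken by gene name from long-read RNA sequencing of mouse heart. These 3 genes, of 15048 annotated genes with a read in either library outside the genomic class (defined below), held 1001 of 91775 transcript models in replicate 1 and 1022 of 94058 in replicate 2. The series had 1 group of 2 libraries, replicates 1 and 2, each from the heart of B6CASTF1/J females (F1 hybrids) aged 14 days, with 2 µg of RNA and added spike-in RNA. No treatment or genotype was compared, and the reads of the parental alleles of the F1 were not separated. The labels do not clearly name separate animals, so p-values and intervals cover counting error only, and the spread between libraries can be technical.

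Myosin heavy chains are the motors of the thick filament: the head binds actin and splits ATP, and the long tail packs into the filament. Myh6 encodes the fast alpha chain and Myh7 the slower beta chain. In mice, beta is known to dominate in the fetal ventricle and alpha after birth, a switch that depends on thyroid hormone. Myh7b encodes a diverged chain of the same family. Each gene carries a microRNA in an intron, and these microRNAs are known regulators of the same gene family.

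Replicate 1 held 896941 reads and replicate 2 held 972159, of which 12223 and 12825 were on spike-ins. Levels are read counts scaled to the library's total (CPM), here 858071 and 926560 reads, spike-ins and the genomic class (reads in a gene that match no splicing pattern) left out. A single read was worth 1.17 and 1.08 CPM, and a count of 0 allowed 3.50 and 3.24 CPM. A long read was taken to stand for 1 RNA molecule, so CPM was not divided by length. Whether long messages are captured less well was not tested, which limits comparisons between genes of unlike length. The main transcripts of the members are of near-equal length, at 6113 bases for Myh6, 6135 for Myh7 and 6163 for Myh7b. Of 9 cardiomyocyte markers, 9 were detected (3 reads or more in each library), and the atrial markers (4 of 4) were also present. So were those of red cells (3 of 3), fibroblasts (4 of 4) and smooth muscle (4 of 4). Endothelial (3 of 3) and macrophage markers (3 of 3) were detected as well. Mean sums were 12533 CPM for red cell and 6313 CPM for fibroblast markers, beside 22315 CPM for cardiomyocyte markers. Of 8 skeletal muscle markers, 0 were detected and 5 had no read, with 3 and 4 reads in all. In tissue, fewer cells of a type and less RNA per cell cannot be told apart.

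Myh6 took nearly all reads of the family. Myh6 (ENSMUSG00000040752.16; mm10 chromosome 14, 54941921 to 54966927, minus strand) had 26832 reads in replicate 1 and 28537 in replicate 2, or 3.13% and 3.08% of the reads behind CPM, the highest mean of any gene. It stood at 31034.5 ± 333 CPM (SD, n = 2). Myh7 (ENSMUSG00000053093.16; chromosome 14, 54970684 to 54994626, minus strand), its neighbour in tandem, had 5 and 14 reads. This is 5.83 CPM in replicate 1 (exact 95% Clopper-Pearson interval 1.89 to 13.6) and 15.1 CPM in replicate 2 (8.26 to 25.4). Myh7b (ENSMUSG00000074652.3; chromosome 2, 155611212 to 155634307, plus strand) had 14 and 19 reads, or 16.3 CPM (8.92 to 27.4) and 20.5 CPM (12.3 to 32.0). The intervals of Myh7 and Myh7b overlapped in each library, so their order was not resolved at this depth, while both lay far below Myh6. Myh6 held 99.9069% ± 0.0316 of the reads of the 3 genes (SD, n = 2), Myh7 0.0338% ± 0.0215 and Myh7b 0.0593% ± 0.0102.

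**Figure D1:**
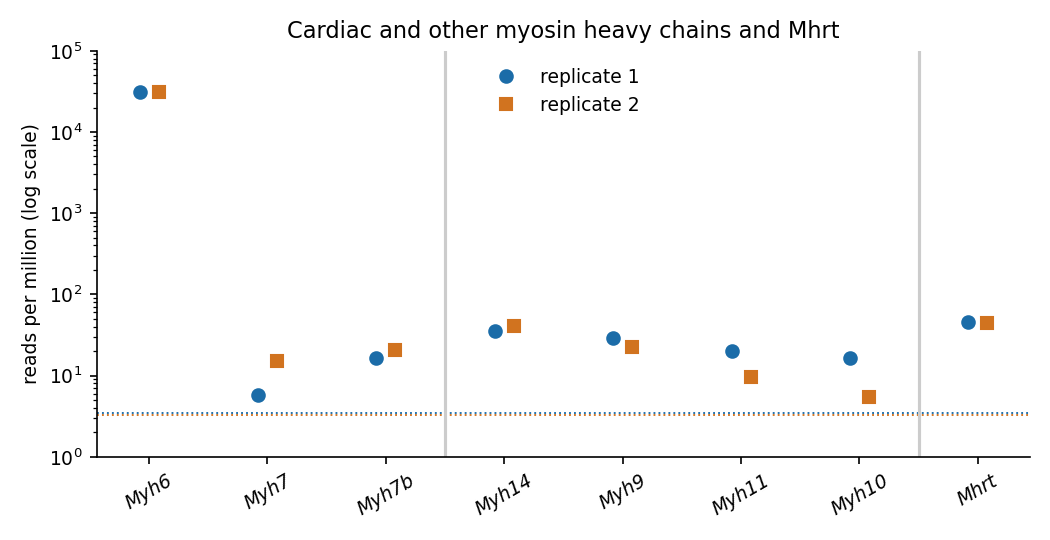
Level in CPM (log axis) of the 3 cardiac myosin heavy chains (left), the other myosin heavy chains with a read (middle) and Mhrt (right), 1 point per library. Dotted lines mark what a count of 0 allows, 3.50 and 3.24 CPM. Myh6 lies at 31270.1 and 30798.9 CPM, and Mhrt, the next highest gene plotted, at 45.5 and 44.2.

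None of the members passed the test between the libraries, in which 162 of 9433 genes (1.72%) differed by an exact binomial test with Benjamini-Hochberg adjustment over all genes with at least 10 reads. The log2 ratio of replicate 2 over replicate 1 was -0.02 for Myh6 (95% interval -0.05 to 0.00, adjusted exact p = 0.591). For Myh7 it was 1.37 (-0.18 to 3.20, adjusted exact p = 0.570), and for Myh7b 0.33 (-0.74 to 1.44, adjusted exact p = 0.996). Unadjusted, 0 of the 3 had a p under 0.05, against 888 of all genes tested. The interval of Myh7 is wide because it rests on 19 reads. The coding sequences of Myh6 and Myh7 were 91.8% identical, with a longest identical run of 245 bases, against 73.0% and 33 bases for Myh6 and Myh7b. Whether single Myh7 reads were misplaced reads of Myh6 was not tested.

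The Myh6 messages split mainly over 2 splice choices, 1 before the start codon and 1 in the last codons. The main annotated transcript (ENSMUST00000081857.13) has 39 exons and 1938 codons. At its last intron, some reads used an acceptor 3 bases further upstream. The main intron spans chromosome 14, 54942002 to 54942352, and the other one 54942005 to 54942352 (the acceptor is the lower coordinate on this minus-strand gene). That acceptor is annotated in a partial transcript of the 3′ end (ENSMUST00000228731.1). It adds 1 codon, 6 codons before the stop, and keeps the frame. The coding ends are shown in sense with the stop codon last, starting 30 bases before the junction; the capitals mark the 3 added bases. The end of Myh7, spliced at the same place, is set beside them and has 5 codons after the junction.
Myh6 main end (chr14:54941981-54942382, mm10, minus strand): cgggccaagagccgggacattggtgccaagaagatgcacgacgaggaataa
Myh6 longer end (same span): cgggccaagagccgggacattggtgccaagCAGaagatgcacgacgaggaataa
Myh7 end (chr14:54970793-54971406, mm10, minus strand): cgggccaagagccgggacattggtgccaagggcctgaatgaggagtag

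The 30 bases before the junction are the same letters in both genes, and the sequences part directly after it. The longer form made up 8053 of 26688 Myh6 reads with either acceptor in replicate 1, or 30.2% (29.6 to 30.7), and 8510 of 28387, or 29.98% (29.4 to 30.5), in replicate 2. No difference between the libraries was detected by Fisher's exact test (adjusted p = 0.737 over 5 such Myh6 shares), and the share was 30.1% ± 0.139 (SD, n = 2).

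At the other end of Myh6, exon 2 began at either of 2 annotated acceptors. The shorter exon 2, annotated in ENSMUST00000226297.1, lacks 64 bases, all before the start codon, whose first base lies in exon 3 (chromosome 14, 54965460). It was used by 4248 of 19577 reads that began with the annotated exon 1 in replicate 1 (21.7%, 21.1 to 22.3) and by 4602 of 21518 in replicate 2 (21.4%, 20.8 to 21.9). Again no difference between the libraries was detected (adjusted exact p = 0.737), and the choice lies wholly before the coding sequence. In the reads that span both ends, the choices could be set against each other in the same molecules. Among reads with annotated exon 1, the longer 3′ form made up 31.2% with the short exon 2 and 29.8% with the long one in replicate 1, a difference of 1.44 percentage points (-0.14 to 3.01, adjusted exact p = 0.149 over 10 tests). In replicate 2 these shares were 30.2% and 29.95%, a difference of 0.24 points (-1.26 to 1.74, adjusted exact p = 0.841). No link between the choices was detected, and the intervals leave room for differences of up to about 3.01 points.

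The combination of these choices ordered the Myh6 models. The main transcript led with 9947 and 10952 reads, or 37.1% and 38.4% of Myh6. The same chain with the longer last exon had 4220 and 4703 reads, and is not itself an annotated full-length transcript. The annotated transcript with the short exon 2 followed with 2717 and 3024 reads (10.1% and 10.6%), and its version with the longer last exon had 1235 and 1314 (4.603% and 4.605%). The 2 leading chains without a first junction had 38 exons, with 1458 and 1457 reads and 630 and 616. The remaining 4 of the leading 10 were incomplete chains of 14, 19, 20 and 25 exons, each with 176 to 336 reads in a library.

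**Figure D2:**
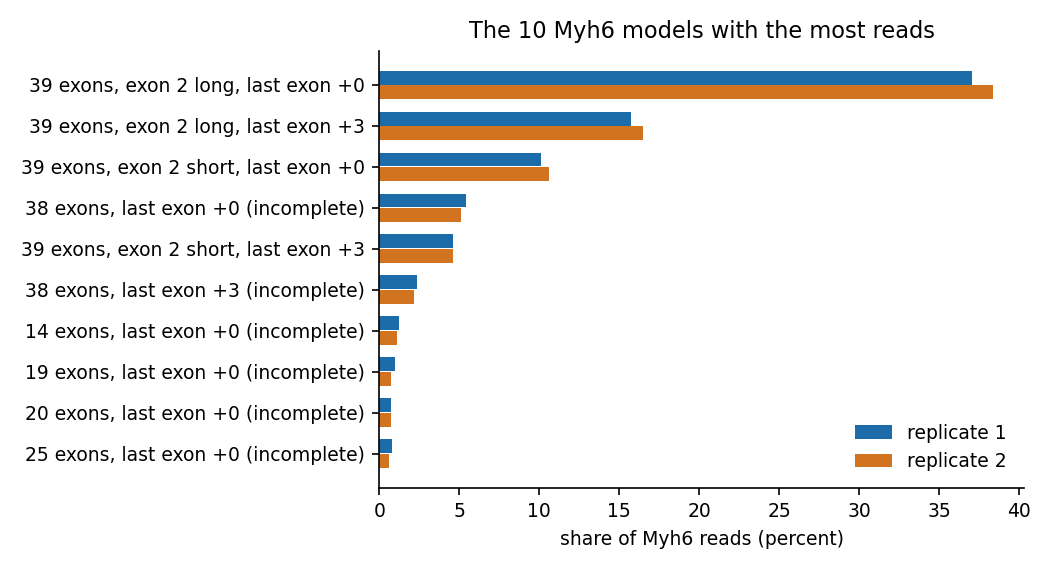
Share of Myh6 reads (percent) on the 10 Myh6 models with the most reads, 1 bar per library, named by exon number, exon 2 form and whether the last exon holds the 3 added bases (+3) or not (+0). The model at the top, the main transcript, has 37.1% and 38.4%, and the order of the first 6 is the same in both libraries.

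Of the share of each model in its gene, 143 of 9607 models tested over the whole table differed between the libraries (1.49%). For Myh6 it was 1 of 139, the incomplete chain of 19 exons, at 0.991% in replicate 1 and 0.708% in replicate 2 (266 and 202 reads, adjusted Fisher exact p = 0.0240). The main transcript itself did not pass (adjusted Fisher exact p = 0.0819). By the class the files give each model, annotated models held 12682 and 13998 Myh6 reads, incomplete ones (ISM) 6754 and 6524, those classed as new combinations (NIC) 6889 and 7427, and those classed as having a new splice site (NNC) 507 and 588. These classes do not follow the annotation site by site: with the upstream donor described below left out, 975 and 980 NIC reads and 251 and 261 ISM reads also used a splice site of no annotated Myh6 transcript, beside 471 and 509 NNC reads. The many models were mostly rare. Of 978 and 991 Myh6 models, 695 and 691 had a single read, while the 339 chains seen in both libraries held 97.3% and 97.4% of the reads.

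Most Myh6 reads covered the whole message. Of the reads with the last junction, 98.3% and 98.2% also reached past intron 31, 89.6% and 90.9% past intron 19, 84.8% and 86.7% past intron 7, and 74.1% and 76.7% past intron 1. Of the incomplete Myh6 reads, 98.7% and 98.5% were classed as lacking the 5′ part and not the 3′ part. The share of all Myh6 reads holding a first junction was 74.1% in replicate 1 and 76.7% in replicate 2, the 1 share of the 5 compared that differed (adjusted Fisher exact p = 2.87e-11). No difference in the longer last exon was detected between reads without and with a first junction, at 30.4% against 30.1% in replicate 1 and 29.96% against 29.98% in replicate 2, with differences (with minus without) of -0.32 points (-1.58 to 0.94) and 0.03 points (-1.24 to 1.29).

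The coding part was spliced with few exceptions. Of reads spanning all 36 coding introns, 21204 of 22451 (94.4%, 94.1 to 94.7) in replicate 1 and 23112 of 24386 (94.8%, 94.5 to 95.1) in replicate 2 had each of them spliced as annotated, either last acceptor counted. Of the other reads, 1103 and 1152, over all classes, had a splice site of neither the main transcript nor its form with the longer last exon, 122 and 98 only kept an intron, and 22 and 24 joined sites of these forms in a new way. Of the 38 introns, 35 were spliced at exactly the sites of the main transcript in over 99% of reads sharing a site, in both libraries. Over all introns tested, 2 of 51361 (0.00389%) differed between the libraries by Fisher's exact test, adjusted over all of them. Of 38 in Myh6 it was 0. Unadjusted, 2 of the 38 had a p under 0.05, beside 537 of the 51361. Intron 38 had the lowest annotated share, counted against the main transcript alone, at 69.7% and 69.9%. Intron 1 was next, at 77.2% and 77.4%. These are the choices described above, whose other acceptors are annotated in further transcripts.

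A further 5′ end of Myh6 lay outside the annotated gene. Some reads began in an unannotated exon whose donor is at chromosome 14, 54967868. This is 1227 bases upstream of the start of the main transcript and 941 beyond the annotated end of the gene, in the 3756 bases between Myh6 and Myh7. The gene of Mhrt, a long noncoding RNA named for this locus, begins 810 bases beyond this donor, at 54968678 on the opposite strand. The 5′ ends of the models with this exon ran from 54967991 to 54968678 in replicate 1 and from 54967982 to 54970035 in replicate 2. The farthest thus reached the first base of the Mhrt gene in replicate 1 and lay within it in replicate 2. The upstream exon made up 271 of 19893 reads with a first junction in replicate 1 (1.36%, 1.21 to 1.53) and 307 of 21877 in replicate 2 (1.40%, 1.25 to 1.57). No difference between the libraries was detected (adjusted Fisher exact p = 0.737). Its reads lay on 24 and 42 models, and 14 chains seen in both libraries held 260 and 279 of the reads. In 266 and 294 of them it was the single exon before exon 2 or 3.

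Reads from the upstream exon more often lacked exon 2. From the annotated exon 1, 96 and 115 reads went straight to exon 3, or 0.490% and 0.534%. From the upstream exon, 89 of 266 (33.5%, 27.8 to 39.5) and 79 of 299 (26.4%, 21.5 to 31.8) did. The difference was 33.0 points in replicate 1 (27.3 to 38.6, adjusted Fisher exact p = 1.55e-119) and 25.9 points in replicate 2 (20.9 to 30.9, adjusted Fisher exact p = 7.05e-97). Where exon 2 was kept, its short form was more frequent after the upstream exon, at 33.3% against 21.8% in replicate 1 (difference 11.5 points, 4.56 to 18.5, adjusted Fisher exact p = 0.00118) and 40.5% against 21.5% in replicate 2 (19.0 points, 12.4 to 25.5, adjusted Fisher exact p = 1.03e-09). Joined to exon 2 or to exon 3, each form keeps the start codon in exon 3. The longer last exon stood at 32.2% against 30.1% in replicate 1 and at 32.0% against 29.96% in replicate 2 for reads from the upstream and the annotated exon, and no difference was detected (adjusted Fisher exact p = 0.661 in both; intervals -3.45 to 7.77 and -3.19 to 7.33 points).

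**Figure D3:**
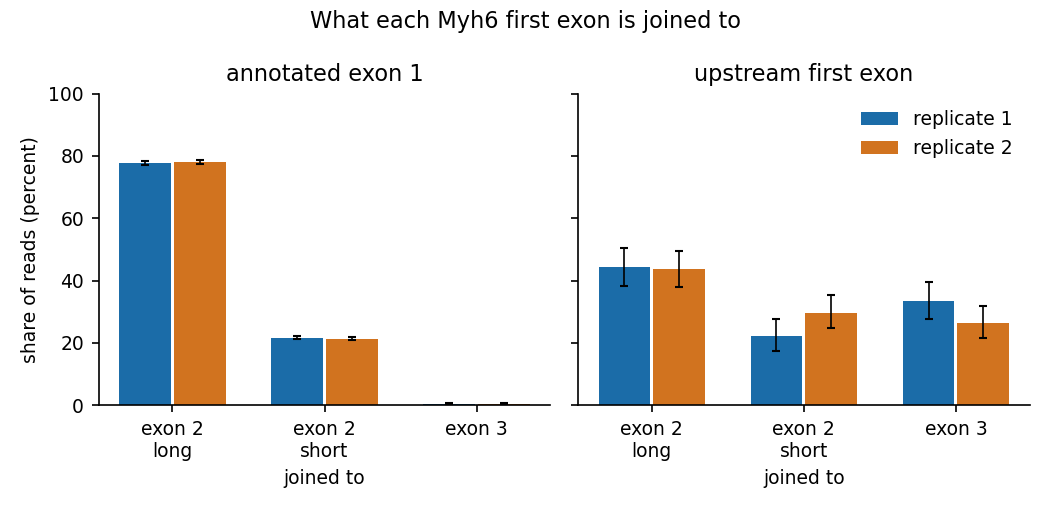
Share of Myh6 reads (percent) joined to the long exon 2, the short exon 2 or directly to exon 3, for reads beginning with the annotated exon 1 (left) and with the upstream exon (right). Bars are libraries and error bars exact 95% intervals. Exon 3 is joined directly in under 1% of reads on the left and in 33.5% and 26.4% on the right.

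The few Myh7 reads were spliced as annotated. The full chain of the main transcript (ENSMUST00000102803.10), with 41 exons, had 1 read in replicate 1 and 4 in replicate 2, and the other 4 and 10 reads were incomplete. Of 10 Myh7 chains, 3 had at least 2 reads in either replicate and the same 3 were seen in both: the full chain, a chain of 4 exons at the 3′ end (3 and 1 reads) and a chain of 3 exons (1 and 2 reads). All of the 40 introns were spliced at exactly the annotated sites in each read sharing a site, and 0 and 1 reads kept an intron. A further 5 and 2 reads of the gene fell in the genomic class, on models of a single exon, so in replicate 1 as many reads were left out as were counted. With them counted, Myh7 had 10 and 16 reads.

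Most Myh7b reads that span exon 7 departed from the annotated form. The full annotated transcript with 42 exons (ENSMUST00000092995.5) had 0 of 14 reads and 0 of 19 reads on its full chain, which at 3 reads allows up to 3.50 and 3.24 CPM. Only 6 and 7 of these reads ran from the first intron to the last, so the others could not show the full chain. The limit thus covers full-length reads alone. An incomplete chain of 41 exons that kept exon 7 had 1 read, in replicate 1. Exon 7 (chromosome 2, 155615401 to 155615497) was left out in 5 of 6 reads that span it in replicate 1 (83.3%, 35.9 to 99.6) and in 8 of 8 in replicate 2 (100%, 63.1 to 100). Introns 6 and 7, which flank it, thus had the lowest annotated shares of any member intron, at 16.7% and 0 for each, followed, among those of Myh7b and by the mean of both libraries, by introns 23 and 27 at 87.5% and 90.9%. In 0 of the other 39 internal exons was a read seen that left the exon out, although exons 6 and 8 had only 1 read with both their own junctions. Exon 7 codes for part of the motor head, including the loop that binds ATP in myosins. It is shown in capitals below between exons 6 and 8.
Myh7b with exon 7 (chr2:155614468-155617547, mm10, plus strand): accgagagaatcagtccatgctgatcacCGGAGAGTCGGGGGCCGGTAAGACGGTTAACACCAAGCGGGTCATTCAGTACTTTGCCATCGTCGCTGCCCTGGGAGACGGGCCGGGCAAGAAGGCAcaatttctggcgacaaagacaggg
Without exon 7, exon 6 is followed directly by exon 8, and the capitals mark the first stop codon in the frame of the annotated start.
Myh7b without exon 7 (chr2:155614468-155617717, mm10, plus strand): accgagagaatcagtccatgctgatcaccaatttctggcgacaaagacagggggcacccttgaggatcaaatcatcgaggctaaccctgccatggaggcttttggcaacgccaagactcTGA

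Exon 7 has 97 bases, which is no multiple of 3. Leaving it out shifts the frame after 175 codons and brings a stop in exon 9 after 206 codons, where the annotated frame has 1941. That stop lies 33 junctions and 5096 bases of message before the last junction. As background, stop codons far upstream of a last junction are known to mark messages for nonsense-mediated decay, and in mammalian heart Myh7b is known for such an exon-skipped form that yields little protein. The 5 and 8 reads without exon 7 all ran to the last junction, and 2 and 3 of them kept no intron. The junction from exon 6 to exon 8 is not in the annotation used.

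Myh7b reads also often kept introns. At least 1 intron was kept in 10 of 14 reads in replicate 1 (71.4%, 41.9 to 91.6) and in 10 of 19 in replicate 2 (52.6%, 28.9 to 75.6). Summed over the introns each read spans, 3.89% (2.14 to 6.44) and 3.52% (2.06 to 5.58) were kept, against 0.0304% (0.0269 to 0.0341) and 0.0232% (0.0203 to 0.0264) in Myh6. These intervals do not overlap, although introns of 1 read are not independent and the difference itself was not tested. Of 41 introns, 11 were kept in at least 1 read. The most reads kept intron 40 (5 and 3), followed by intron 1 (2 and 4), intron 28 (3 and 1), intron 38 (2 and 2) and intron 3 (1 and 2), and the other 6 were kept in 1 read each, 1 in replicate 1 and 5 in replicate 2. Intron 1 precedes the start codon. Of 29 Myh7b chains, 2 were seen in both libraries. The 2 with at least 2 reads in a library are both classed as incomplete, each with 0 and 2 reads. They were a chain of 40 exons without exon 7, which kept intron 1, and a chain of 11 exons.

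**Figure D4:**
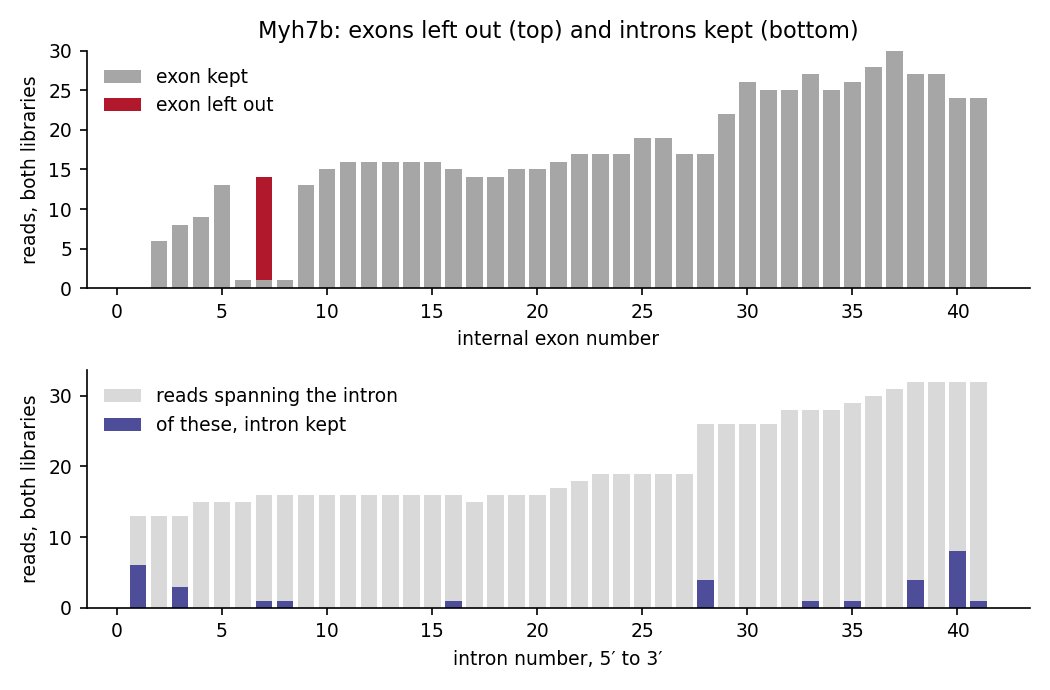
Reads of both libraries summed over Myh7b. The upper panel gives, for each internal exon, reads that keep it (grey) or leave it out (red), counting reads with the splice sites on both sides; the lower panel gives, for each intron, reads spanning it (light) and reads that keep it (dark). Exon 7 is the only one with reads that leave it out, 13 of 14, and intron 40 has the most reads that keep it, 8.

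Each member hosts a microRNA in the sense direction, and the host reads give the splicing of those introns, not the microRNA itself. The mature sequences, from RefSeq on GRCm38.p6 (3 of 3 matched), are shown with the seed, bases 2 to 8, in capitals, because the seeds group the 3 hosts.
mmu-miR-208a-3p (Myh6, intron 29, chr14:54949072-54949093, minus strand): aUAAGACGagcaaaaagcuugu
mmu-miR-208b-3p (Myh7, intron 31, chr14:54975710-54975731, minus strand): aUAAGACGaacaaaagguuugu
mmu-miR-499-5p (Myh7b, intron 19, chr2:155622893-155622913, plus strand): uUAAGACUugcagugauguuu

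The seeds of miR-208a-3p and miR-208b-3p were identical in 7 of 7 bases, and that of miR-499-5p matched them in 6 of 7. The miR-208a intron was spliced out at its annotated sites in 26033 and 27662 Myh6 reads, the miR-208b intron in 1 and 6 Myh7 reads and the miR-499 intron in 6 and 9 Myh7b reads. In no library did a read of the host gene, outside the genomic class, keep any of the 3 introns. The gene of miR-208b, which lies within the Myh7 intron, had 1 read of its own in replicate 1 and 0 in replicate 2. Counted as spliced reads, 26033 for the miR-208a intron stood beside 1 for the miR-208b intron in replicate 1, and 27662 beside 6 in replicate 2. Only 1 and 6 Myh7 reads spanned its intron at all, beside 26157 and 27794 Myh6 reads, so incomplete reads enter this contrast.

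Other myosin heavy chains were either low or without a read. Of 11 genes, 4 were detected and 7 had no read, namely Myh1, Myh2, Myh3, Myh4, Myh8, Myh13 and Myh15, all of them sarcomeric chains outside the cardiac set. The highest was Myh14, a nonmuscle chain, at 34.96 and 41.01 CPM. Myh9, also nonmuscle, had 29.1 and 22.7 CPM, Myh11 of smooth muscle 19.8 and 9.71, and Myh10, a further nonmuscle chain, 16.3 and 5.40. Of the 4 tested, 0 differed between the libraries by the exact binomial test with adjustment (1.72% of all genes did). Unadjusted, 1 had a p under 0.05, beside 888 of 9433 over all genes.

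Partners of the thick filament were far more abundant than Myh7. Of 19 listed genes, 18 were detected, summing to 13531.5 ± 1060 CPM (SD, n = 2), below Myh6 alone. Myl3, the ventricular essential light chain, had 5786 and 6648 CPM, and Myl2, the ventricular regulatory light chain, 1785 and 2235 CPM. Mylk3, the cardiac light chain kinase, had 719 and 745 CPM. Of 18 tested, 2 were higher in replicate 2 and 1 was lower, beside 162 of 9433 (1.72%) over all genes. Myl2 (log2 ratio 0.32, adjusted exact p = 1.04e-08) and Myl3 (0.20, adjusted exact p = 1.83e-10) were higher, and Trim54, a muscle ubiquitin ligase, was lower, at 221 and 148 CPM (-0.58, adjusted exact p = 0.0233). The list's median log2 ratio was 0.08 beside 0.00 over all genes tested. Of the marker lists, 4 of 9 cardiomyocyte markers were higher and 0 lower in replicate 2. They include Myl2 and Myl3, so the 2 lists are not separate. Lower were 3 of 3 red cell markers and 1 of 4 atrial markers, and 0 markers of the other lists differed. Over all genes it was 74 higher and 88 lower of 9433. Sums were 20803 and 23828 CPM for the cardiomyocyte markers and 13457 and 11610 CPM for the red cell markers. The part of the marker lists in the differences was not tested.

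Regulators of the family were low but mostly present. Of 27 listed genes, 19 were detected. By the exact binomial test with adjustment, 0 of 19 tested differed between the libraries, beside 1.72% of all genes. Unadjusted, 1 of the 19 had a p under 0.05, beside 888 of 9433 over all genes. The median log2 ratio of the list was 0.12. The highest were the cardiac transcription factors Nkx2-5, at 162 and 172 CPM, Gata4, at 138 and 150, Mef2a, at 100.2 and 153, and Mef2d, at 54.8 and 76.6. Thra, a thyroid hormone receptor, had 14 and 22 reads (16.3 and 23.7 CPM), and Thrb, the other one, 1 and 3 reads, at or under the limit. Mhrt, named here after its values were seen because it begins between Myh6 and Myh7 on the opposite strand and runs on over the 3′ part of Myh7, had 39 and 41 reads, or 45.5 and 44.2 CPM. It had more reads than Myh7 in both libraries.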

How the data were processed

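Long-read RNA sequencing of heart in 2 libraries of 1 group was used. The authors deposited whole-number read counts per transcript model with matching exon structures on mm10 and GENCODE M21, each library processed alone; per the file headers the models are from TALON. The aligner and its version: not given in the sources used here. Models were matched between libraries by intron chain. Counts per gene, genomic class and spike-ins left out, were compared by a two-sided exact binomial test over all genes with at least 10 reads; model shares (at least 10 reads, in genes with 20 in each library) and intron use (at least 20) by Fisher's exact test, all with Benjamini-Hochberg adjustment at 0.05 (scipy 1.17.1). Log2 ratios within lists add 0.5 reads to each count. Intervals are exact 95% Clopper-Pearson, apart from those of differences in percentage points, which are normal approximations. Tests were checked on simulated data. TMM was run in edgeR 4.0.16, and the median of ratios was computed directly. Members and gene lists were chosen with earlier results of these data known. The upstream exon, the short exon 2, the links between choices, exon 7 of Myh7b and kept introns were examined after the data had been seen. Names follow a rule: the members, Myh7 and Myh7b models with at least 2 reads, the 10 leading Myh6 models, the 5 introns with the lowest annotated share, the leading 4 of each list, and Myh11, Thra, Thrb and listed genes that differed. The values of 1 gene that the rule names are not reported here.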

Additional observations from a re-analysis of the deposited data

Results flagged for a closer look

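Unannotated loci on the strand opposite Myh6 and Myh7b had reads in both libraries, above the 3 reads that a count of 0 allows; no comparison of the report uses them. Opposite Myh6 there were 15 reads in replicate 1 and 18 in replicate 2. Of these, 14 and 18 lay on 1 model in each library, at chromosome 14, 54953953 to 54955605 in replicate 1 and 54951913 to 54955605 in replicate 2, over intron 20 of Myh6 and its surroundings. Opposite Myh7b there were 6 and 8 reads, of which 6 and 7 lay at chromosome 2, 155618313 to 155620781, over introns 10 to 13. The strand is the one the files give to each model, and its accuracy was not tested.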

How the results depend on the processing

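Over 21 results and 73 pairs of a result and an alternative, 61 kept their direction and call or stayed within the spread between the libraries (counts within 1.5 times). The 61 include the pairs that leave out 1 library. With 2 libraries those stay within the SD whatever the values, so they say nothing about stability. Mean Myh6 CPM moved to 30046.4 with the genomic class, 29634.6 per all reads with spike-ins and 19081.5 on annotated models alone. On annotated models alone Myh7 moved to 3.49 CPM, Myh7b to 0 and the Myh6 share of member reads to 99.9818%. The Myh6 log2 ratio turned to 0.0040 with the median of ratios and to 0.018 on annotated models; the members' adjusted exact p ranged from 0.240 to 1 over the alternatives. Models whose share differed numbered 84 of 73847 tested with no minimum and 70 of 6026 with a minimum of 30 reads, against 143 of 9607. The number tested thus changes with the minimum, and the cause of the differences was not tested. Genes that differed ranged from 120 of 7949 tested, on annotated models alone, to 178 of 9433, with the median of ratios. Without incomplete models the leading Myh6 model held 49.6%, against 37.7%, as fewer reads are counted. The upstream exon made up 1.27% with models of at least 5 reads, against 1.38%. Myh7b left out exon 7 in 5 of 5 reads of each library without incomplete models. This filter removed the 1 read that kept exon 7, an incomplete chain in replicate 1, so it is no separate check. No called link of Myh6 splice choices lost its call in the alternatives run. No paired analysis was possible because there is 1 group. With 14 reads over exon 7 and 19 on Myh7, depth limits both.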

Other observations

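The unannotated splice sites of Myh6 lay mostly next to annotated ones. Reads with a site of no annotated Myh6 transcript, whatever class the files give them and with the upstream donor left out, numbered 1697 (6.32% of Myh6 reads) in replicate 1 and 1750 (6.13%) in replicate 2. In 73.0% and 68.9% of them all such sites lay within 10 bases of an annotated site. Among junctions with 1 site moved by this little, 44.3% and 44.1% were moved by 2 bases, 28.9% and 31.5% by 4 and 14.2% and 13.7% by 3. The bases at these sites were not examined, as no genome sequence was used here.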
